A study of Mus musculus with 2 samples.

Results

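Pericyte-like mural cells were examined in single-cell RNA sequencing of mouse brain at embryonic stage E12.5, in 1 library from Foxq1iECKO brains and 1 from Foxq1flox/flox brains. Members were chosen by measured counts: a cell barcode was a member when it had a transcript of at least 3 of 7 pericyte genes (Rgs5, Abcc9, Kcnj8, Pdgfrb, Cspg4, Notch3 and Vtn) and of at most 1 of 8 endothelial genes (Pecam1, Cdh5, Kdr, Flt1, Tek, Tie1, Esam and Egfl7). There were 278 such barcodes among 13108 that passed the filters in the Foxq1iECKO library, and 209 among 13933 in the Foxq1flox/flox library. The Foxq1flox/flox mice carry a Foxq1 allele flanked by sites for Cre recombinase. The name Foxq1iECKO stands for the genotype with which they were compared, and the title of the study speaks of endothelial FOXQ1, a forkhead transcription factor, in brain vessel growth and barrier formation. The Cre driver, its inducing agent, the deleted part of Foxq1 and the number of embryos behind each library are not stated in the labels. Cells of both libraries passed a sort with beads against CD31, the product of Pecam1 and a surface protein of endothelial cells, and the labels call them endothelial cells.

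Pericytes are mural cells that share the basement membrane of capillaries with the endothelium. In the embryonic brain, endothelial PDGF-B acting on the receptor PDGFRB recruits them, and mice that lack this signal have leaky brain vessels. Rgs5 encodes a regulator of G protein signalling and is among the genes used most often to recognise them. Abcc9 and Kcnj8 encode the sulfonylurea receptor and the pore of a potassium channel gated by ATP, and Notch3 encodes a receptor that keeps mural cells in a differentiated state.

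Abcc9 (ENSMUSG00000030249) and Kcnj8 (ENSMUSG00000030247) lie next to each other on the minus strand of mouse chromosome 6, with 16248 bp between them, and Rgs5 (ENSMUSG00000026678) lies on the plus strand of chromosome 1. Their promoters are shown because Rgs5 and Abcc9 were found in most members, because Kcnj8 encodes the channel partner of Abcc9, and because Notch signalling acts through RBPJ, whose core site is written TGGGAA, or TTCCCA on the other strand. Each stretch runs from 250 bases before to 50 bases after the gene's start in RefSeq on build GRCm38.p6, and capitals mark TGGGAA.
Rgs5 promoter, chr1:169655251-169655550, plus strand: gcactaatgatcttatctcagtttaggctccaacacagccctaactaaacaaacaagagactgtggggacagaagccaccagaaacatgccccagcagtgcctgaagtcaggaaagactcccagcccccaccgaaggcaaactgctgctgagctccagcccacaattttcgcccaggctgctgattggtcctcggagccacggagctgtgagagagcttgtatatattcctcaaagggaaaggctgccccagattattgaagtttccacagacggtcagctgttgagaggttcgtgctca
Abcc9 promoter, chr6:142702225-142702524, minus strand: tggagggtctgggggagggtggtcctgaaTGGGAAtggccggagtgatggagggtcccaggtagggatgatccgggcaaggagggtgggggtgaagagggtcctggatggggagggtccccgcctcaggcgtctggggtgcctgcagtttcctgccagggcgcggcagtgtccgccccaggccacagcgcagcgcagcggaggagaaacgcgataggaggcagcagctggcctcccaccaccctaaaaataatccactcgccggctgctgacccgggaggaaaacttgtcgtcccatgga
Kcnj8 promoter, chr6:142571565-142571864, minus strand: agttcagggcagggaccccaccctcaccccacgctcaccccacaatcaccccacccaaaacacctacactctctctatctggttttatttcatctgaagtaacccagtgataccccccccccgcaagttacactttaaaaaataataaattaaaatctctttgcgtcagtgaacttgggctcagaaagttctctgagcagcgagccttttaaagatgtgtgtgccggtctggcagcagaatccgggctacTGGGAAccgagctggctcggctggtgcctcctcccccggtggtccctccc
Abcc9 held 1 match, with its first base at position -221 from the start, and Kcnj8 held 1 match at position 0, the start itself. Rgs5 held none in this window. These letters, on either strand, occurred in 8397 of 32851 mouse promoters of this length (25.6%), so a match is a description and not a binding site. A forkhead core, TGTTTAC or GTAAACA, occurred in 1199 of those promoters (3.65%) and in none of these 3.

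The whole libraries held 15108 barcodes in Foxq1iECKO and 15837 in Foxq1flox/flox. Member barcodes had a median of 4437.5 UMIs in Foxq1iECKO and 4267 UMIs in Foxq1flox/flox, where a UMI is a tag that counts 1 captured transcript. Their summed totals were 1432477 UMIs in Foxq1iECKO and 1088461 UMIs in Foxq1flox/flox. Levels are counts summed over barcodes and given as CPM, counts per 1e6 of that sum. The libraries shared 270 barcode sequences, 189 of them after filtering, and 0 of the members were shared. Brackets hold 95% intervals for counting error only. With 1 library per genotype there is no replicate check and no test between genotypes, and a difference between the libraries cannot be told apart from one between embryos or collections.

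The members varied widely in the genes that chose them. In the Foxq1iECKO library 127 members had 3 of the 7 pericyte genes, 75 had 4, 54 had 5, 17 had 6 and 5 had all 7. In the Foxq1flox/flox library these numbers were 90, 52, 45, 18 and 4. The most common set was Rgs5 with Abcc9 and Notch3 alone, in 39 Foxq1iECKO and 32 Foxq1flox/flox members. No gene of the rule was thus present in every member.

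Of the pericyte genes, Rgs5 had a UMI in 85.6% of Foxq1iECKO members and 84.7% of Foxq1flox/flox members. Abcc9 had one in 84.5% of Foxq1iECKO members and 85.2% of Foxq1flox/flox members, and Notch3 in 80.6% of Foxq1iECKO members and 88.0% of Foxq1flox/flox members. The PDGF receptor gene Pdgfrb was found in 47.5% of Foxq1iECKO and 47.8% of Foxq1flox/flox members, a little above the share for Cspg4, the gene of the proteoglycan NG2, at 35.3% in Foxq1iECKO and 35.9% in Foxq1flox/flox. Kcnj8 was found in 31.7% of Foxq1iECKO and 29.2% of Foxq1flox/flox members, and Vtn, the gene of the adhesive plasma protein vitronectin, in 26.3% of Foxq1iECKO and 30.6% of Foxq1flox/flox members. These values chose the members and are given as a description.

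Summed over members, Rgs5 stood at 3742 CPM in the Foxq1iECKO library and 3721 CPM in the Foxq1flox/flox library. Abcc9 stood at 1485 CPM in Foxq1iECKO and 1616 CPM in Foxq1flox/flox, and Notch3 at 489 CPM in Foxq1iECKO and 504.4 CPM in Foxq1flox/flox. The levels of these 3 genes were close in both libraries. Pdgfrb stood at 122 CPM in Foxq1iECKO and 132 CPM in Foxq1flox/flox, Cspg4 at 99.1 CPM in Foxq1iECKO and 100.1 CPM in Foxq1flox/flox, Kcnj8 at 101 CPM in Foxq1iECKO and 71.7 CPM in Foxq1flox/flox and Vtn at 70.5 CPM in Foxq1iECKO and 80.8 CPM in Foxq1flox/flox. The member with the most Rgs5 UMIs had 110 in Foxq1iECKO and 77 in Foxq1flox/flox.

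The limit of 3 genes cut through a steep slope. Members with exactly 3 pericyte genes, just inside it, held 1289.9 CPM of Rgs5 in Foxq1iECKO and 1591 CPM in Foxq1flox/flox, while members with 4 or more held 6412 CPM in Foxq1iECKO and 5640.0 CPM in Foxq1flox/flox. Barcodes with 2 pericyte genes, just outside it, held 171 CPM in Foxq1iECKO (574 barcodes) and 159.8 CPM in Foxq1flox/flox (457 barcodes). Col1a1, a collagen gene of fibroblasts, ran the other way, at 2655 CPM in Foxq1iECKO and 3043 CPM in Foxq1flox/flox for members with 3 genes, against 758 CPM in Foxq1iECKO and 828 CPM in Foxq1flox/flox for members with 4 or more.

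On the endothelial side, 109 Foxq1iECKO and 81 Foxq1flox/flox members had no endothelial gene of the rule, and 169 Foxq1iECKO and 128 Foxq1flox/flox members had 1. The single gene was mostly Flt1, a VEGF receptor gene (67 Foxq1iECKO and 53 Foxq1flox/flox members), or Esam, an adhesion gene that pericytes are also known to transcribe (48 Foxq1iECKO and 42 Foxq1flox/flox members). Pecam1, the target of the bead sort, was found in 5 Foxq1iECKO and 3 Foxq1flox/flox members. Barcodes with at least 3 pericyte genes and 2 endothelial genes, just outside the limit, numbered 125 in Foxq1iECKO and 111 in Foxq1flox/flox. Their Rgs5 level was 5495 CPM in Foxq1iECKO and 5739.8 CPM in Foxq1flox/flox, and their Kdr level 173 CPM in Foxq1iECKO and 111 CPM in Foxq1flox/flox. Barcodes with at least 3 genes of each kind, called both programmes here, numbered 902 in Foxq1iECKO and 539 in Foxq1flox/flox, with a median of 9746 UMIs in Foxq1iECKO and 10413 UMIs in Foxq1flox/flox. The gate thus left more barcodes with pericyte genes outside than it took in.

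Clustering of the members alone gave 11 subclusters, numbered here by falling Rgs5 level. Subclusters 1 to 5 had 3000 CPM or more of Rgs5 over both libraries, a threshold chosen after the values were seen, and are called Rgs5-high. Rgs5 is itself a gene of the rule, so this split is a description. They held 149 Foxq1iECKO members (53.6%) and 115 Foxq1flox/flox members (55.0%). The remaining 6 subclusters, with 129 Foxq1iECKO and 94 Foxq1flox/flox members, were led by genes of neurons, macrophages, cartilage or connective tissue. Their barcodes also had more UMIs, with a median of 6467 in Foxq1iECKO and 6306.5 in Foxq1flox/flox, against 3039 in Foxq1iECKO and 3193 in Foxq1flox/flox for Rgs5-high members. A deeper barcode can pass a limit of 3 genes more easily, and the part of depth or of free RNA in these memberships was not tested. The genes of a subcluster formed it, so they describe it and test nothing.

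**Figure D1:**
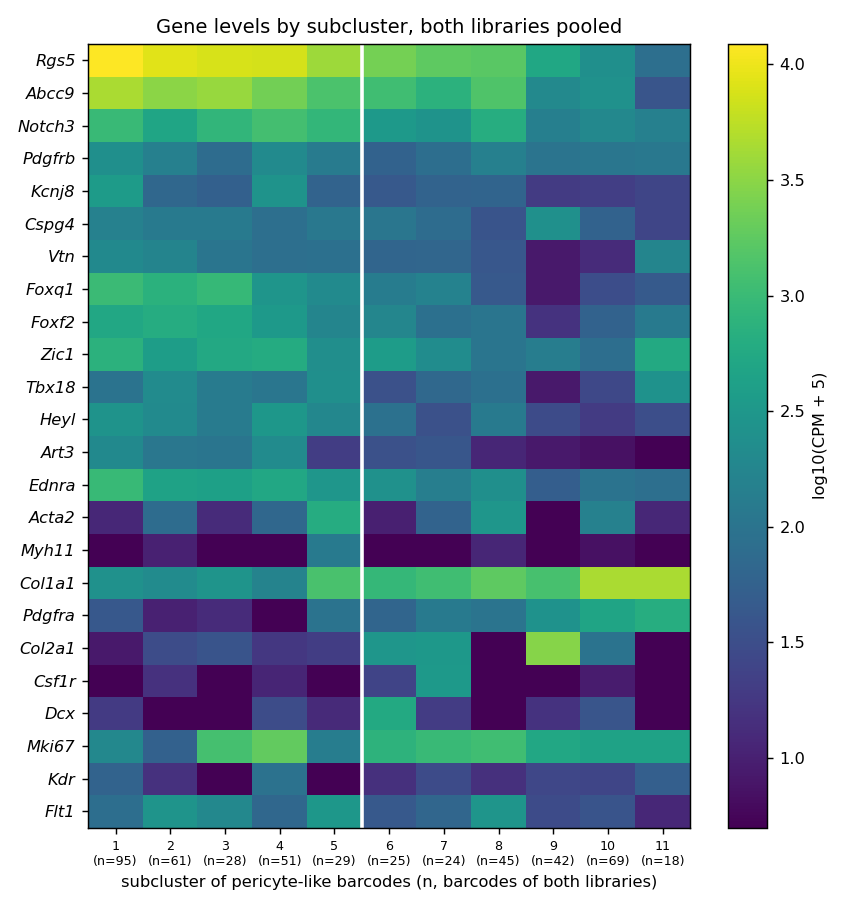
Heat map of the level of 24 genes (rows) in 11 subclusters of the pericyte-like barcodes (columns, with the number of barcodes of both libraries), as log10 of CPM plus a pseudocount of 5. Subclusters 1 to 5 lie left of the white line. Rgs5, Abcc9, Foxq1 and Foxf2 are higher in subclusters 1 to 4 than in all others. In subcluster 5 Abcc9 is at 1346 CPM, beside 1415 CPM in subcluster 8, and Foxf2 at 170 CPM, beside 175 CPM in subcluster 6. Dcx, Csf1r, Col2a1 and Col1a1 stand out in subclusters 6, 7, 9 and 10.

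Subcluster 1 had the highest Rgs5 level. It held 55 Foxq1iECKO and 40 Foxq1flox/flox members, with Rgs5 at 12248 CPM and Kcnj8 at 357 CPM over both libraries. A gene is called raised in a subcluster at 50 CPM or more and at least 2 times its level in the other members. For that ratio 5 CPM was added to both levels. Of 30 other pericyte genes, which the rule did not use, 19 were raised in subcluster 1. In subclusters 2, 3, 4 and 5 the number of them raised was 5, 1, 7 and 5, and in subclusters 6 to 11 it was between 0 and 3. The share of all genes raised in a subcluster was not computed, so these counts and those below are a description. The leading genes of subcluster 1 included Mmp9, a matrix protease gene, and Ecm2, an extracellular matrix gene. Subcluster 2 (31 Foxq1iECKO and 30 Foxq1flox/flox members; Rgs5 at 8642 CPM) was led by the cytokine gene Il11, the thrombomodulin gene Thbd and the complement regulator gene Cd55. Subcluster 3 (14 Foxq1iECKO and 14 Foxq1flox/flox members; Rgs5 at 7582 CPM) shared Il11 and had Apold1, an early response gene of vessels.

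Genes of dividing cells were raised in subclusters 3, 4 and 8. In subcluster 3, 10 of 43 genes of G2 and mitosis were raised, with Mki67, the gene of a protein of dividing cells, at 1206 CPM. Subcluster 4 held 40 Foxq1iECKO and 11 Foxq1flox/flox members, with Rgs5 at 7301 CPM, Mki67 at 1898 CPM and 32 of these 43 genes raised. Subcluster 5 (9 Foxq1iECKO and 20 Foxq1flox/flox members; Rgs5 at 3869 CPM) combined the smooth muscle genes Acta2 (627 CPM), Myh11 and Myocd with genes known from mast cells, Cpa3 (1354 CPM), Cma1 and Hdc.

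Over both libraries the remaining subclusters carried Rgs5 at lower levels, but not every gene of the rule. In Foxq1iECKO alone, Rgs5 was at 2890 CPM in subcluster 6 and 2571 CPM in subcluster 5. Cspg4 was at 244 CPM in subcluster 9 and 148 CPM in subcluster 1, and Abcc9 at 1415 CPM in subcluster 8 and 1346 CPM in subcluster 5, over both libraries. Subcluster 6 (14 Foxq1iECKO and 11 Foxq1flox/flox members) was led by the neuronal genes Neurod2 and Elavl3, with all 8 neuron markers raised, and 13 of its 25 barcodes were predicted doublets, that is, 2 cells under 1 barcode. Subcluster 7 (18 Foxq1iECKO and 6 Foxq1flox/flox members) was led by the macrophage genes Ctss (1420.2 CPM) and Mrc1, with 6 of 8 macrophage markers raised, and 13 of its 24 barcodes were predicted doublets. Among all members 18 Foxq1iECKO and 14 Foxq1flox/flox barcodes were predicted doublets, and they were kept as the rule has it. Subcluster 8 (25 Foxq1iECKO and 20 Foxq1flox/flox members, Rgs5 at 1644 CPM) had Agtr2, an angiotensin receptor gene, and Mgp, and 19 of 43 genes of G2 and mitosis were raised in it. Of the markers of fibroblasts, cartilage, neurons and macrophages, 0 were raised in it, and 2 of 15 smooth muscle genes were.

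Connective tissue genes led the subclusters with the least Rgs5. Subcluster 9 (22 Foxq1iECKO and 20 Foxq1flox/flox members; Rgs5 at 516 CPM) was led by the cartilage genes Matn1, Hapln1 and Col9a1, with 9 of 10 cartilage markers raised. Subcluster 10 (40 Foxq1iECKO and 29 Foxq1flox/flox members; Rgs5 at 242 CPM) was led by Cxcl14 and the Wnt inhibitor gene Dkk1, with 8 of 10 fibroblast markers raised. Subcluster 11 (10 Foxq1iECKO and 8 Foxq1flox/flox members; Rgs5 at 82.2 CPM) was led by Ranbp3l, Cldn11 and Dcn, with 6 of 10 fibroblast markers raised. Connective tissue cells also transcribe Pdgfrb, Cspg4 and Notch3, and that combination alone admitted 14 Foxq1iECKO and 11 Foxq1flox/flox members.

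Genes outside the rule also set the members apart from all other filtered barcodes. Gucy1a1, a subunit of the nitric oxide receptor, stood at 119 CPM in Foxq1iECKO members and 122 CPM in Foxq1flox/flox members, against 15.2 CPM in the other Foxq1iECKO barcodes and 11.7 CPM in the other Foxq1flox/flox barcodes. Its partner Gucy1b1 stood at 114 CPM in Foxq1iECKO and 114 CPM in Foxq1flox/flox members. The list of 20 also held the endothelin receptor gene Ednra, the Notch target Heyl, the transcription factor gene Tbx18, the ion pump gene Atp1b2, the G protein regulator gene Rgs4, the myosin kinase gene Mylk, the actin gene Acta2, the phosphodiesterase genes Pde3a and Pde8b, and Art3. All 20 were at a higher level still in the Rgs5-high members of both libraries, which the clustering chose: Ednra was at 325 CPM in Foxq1iECKO and 272 CPM in Foxq1flox/flox members as a whole, and at 666 CPM in Foxq1iECKO and 529 CPM in Foxq1flox/flox within Rgs5-high. In barcodes with both programmes some of the 20 were at a level similar to or above that of the members, and others were lower. Gucy1b1 stood there at 113 CPM in Foxq1iECKO and 99.8 CPM in Foxq1flox/flox, and Rgs4 at 240 CPM in Foxq1iECKO and 230 CPM in Foxq1flox/flox. Acta2 stood there at 13.7 CPM in Foxq1iECKO and 17.3 CPM in Foxq1flox/flox, against 92.8 CPM in Foxq1iECKO and 139 CPM in Foxq1flox/flox members. Higd1b, a marker of adult brain pericytes, was near 0, at 1.40 CPM in the Foxq1iECKO library and 0.919 CPM in the Foxq1flox/flox library.

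Pericyte-like barcodes were a small part of what the sort retained. They made up 2.12% [1.88, 2.38] of filtered barcodes in Foxq1iECKO and 1.5% [1.30, 1.72] in Foxq1flox/flox, a difference of 0.621 percentage points [0.298, 0.947]. With at least 4 pericyte genes and no endothelial gene required, the shares were 0.397% in Foxq1iECKO and 0.301% in Foxq1flox/flox. Because CD31 was sorted for and members hardly have its transcript, these shares do not describe the brain. The share of barcodes with both programmes was 6.88% in Foxq1iECKO and 3.87% in Foxq1flox/flox.

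**Figure D2:**
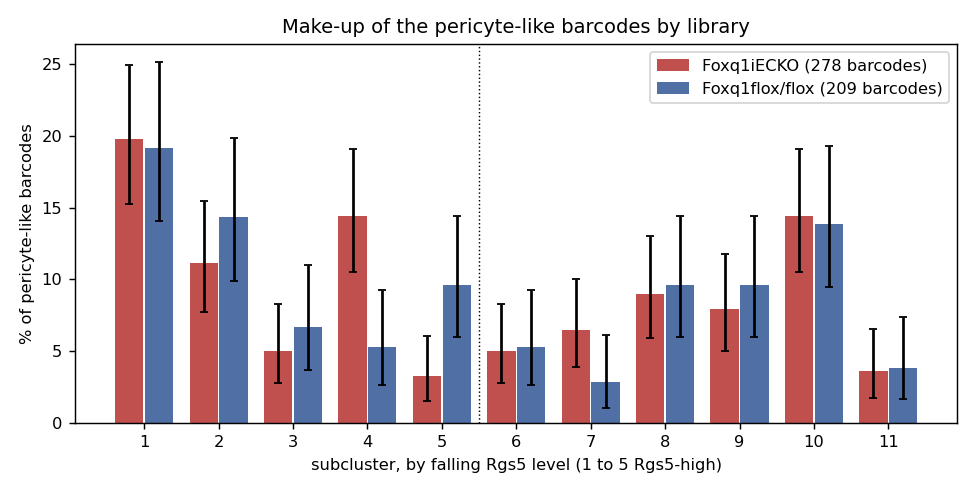
Share of the pericyte-like barcodes of each library (vertical axis, %) in each of 11 subclusters (horizontal axis, by falling Rgs5 level), with 95% exact binomial intervals that cover counting error only. Subcluster 4 was 14.4% of members in Foxq1iECKO and 5.26% in Foxq1flox/flox, and subcluster 5 was 3.24% in Foxq1iECKO and 9.57% in Foxq1flox/flox.

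Within the members, the make-up of the libraries differed most for subclusters 4, 5 and 7. Subcluster 4 was 14.4% of Foxq1iECKO members and 5.26% of Foxq1flox/flox members. Subcluster 5 was 3.24% of Foxq1iECKO members and 9.57% of Foxq1flox/flox members. The macrophage-marked subcluster 7 was 6.47% of Foxq1iECKO members and 2.87% of Foxq1flox/flox members. The genotypes may differ in genes that formed the subclusters, so these shares are descriptive, and results that they touch are given below with their subclusters named.

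Foxq1, the targeted gene, was transcribed in the pericyte-like barcodes of both libraries, and its level did not differ by size. It stood at 266 CPM [239.9, 294] in Foxq1iECKO and 300.4 CPM [269, 335] in Foxq1flox/flox, from 381 UMIs in Foxq1iECKO and 327 UMIs in Foxq1flox/flox (log2 ratio -0.18 [-0.39, 0.04]). All log2 ratios are Foxq1iECKO over Foxq1flox/flox. A gene is called higher or lower by size when its levels differ at least 1.5-fold and the counting interval of the ratio excludes 1. In endothelial-like barcodes (at least 3 endothelial genes and at most 1 pericyte gene of the rule) Foxq1 stood at 100.2 CPM in Foxq1iECKO and 299 CPM in Foxq1flox/flox (log2 ratio -1.57), which is lower by size. The labels do not place the deleted part, so a Foxq1 UMI need not come from an intact transcript.

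Rgs5-high members carried most of the signal. Foxq1 stood there at 672 CPM in Foxq1iECKO and 723 CPM in Foxq1flox/flox (-0.11 [-0.34, 0.13]), and in the other subclusters at 48.3 CPM in Foxq1iECKO and 63.1 CPM in Foxq1flox/flox. After each barcode was thinned to 2000 UMIs, 54.1% of Rgs5-high members in Foxq1iECKO and 50% in Foxq1flox/flox had a Foxq1 UMI (63.8% in Foxq1iECKO and 62.6% in Foxq1flox/flox before thinning). Thinning left out 38 Rgs5-high members in Foxq1iECKO and 25 in Foxq1flox/flox as too shallow. Neuron-like barcodes, taken for comparison, had a thinned share of 0.924% in Foxq1iECKO and 1.34% in Foxq1flox/flox. Their median depths were 3437.5 UMIs in Foxq1iECKO and 3320.0 UMIs in Foxq1flox/flox. The share in Rgs5-high members was far above theirs in both libraries. Endothelial-like barcodes had a thinned share of 12.7% in Foxq1iECKO and 28.6% in Foxq1flox/flox. Barcodes with both programmes had 56.4% in Foxq1iECKO and 72.7% in Foxq1flox/flox. The part of free RNA or of endothelial transcripts in the Foxq1 UMIs of members was not tested.

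**Figure D3:**
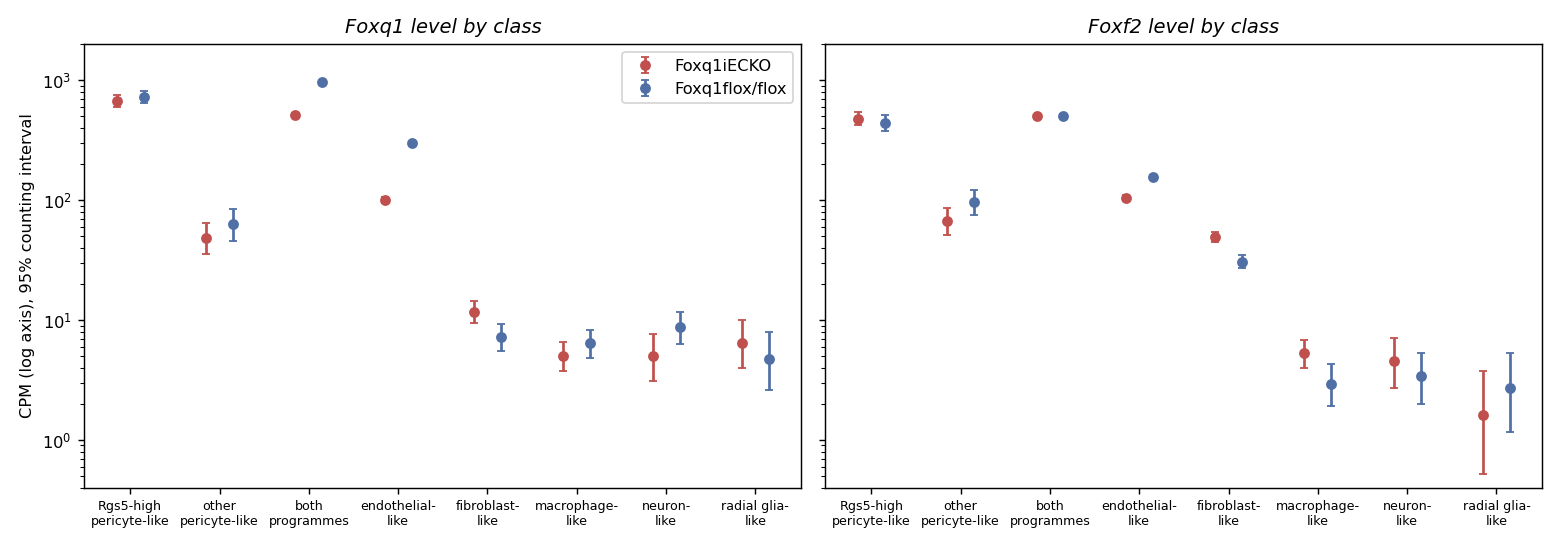
Level of Foxq1 (left) and Foxf2 (right) in 8 groups of barcodes, in CPM on a log axis, for the Foxq1iECKO (red) and Foxq1flox/flox (blue) library, with 95% Poisson intervals for counting error only. In endothelial-like barcodes Foxq1 was at 100.2 CPM in Foxq1iECKO and 299 CPM in Foxq1flox/flox, while in Rgs5-high pericyte-like barcodes it was at 672 CPM in Foxq1iECKO and 723 CPM in Foxq1flox/flox.

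Kdr, the main VEGF receptor gene of endothelium and a gene of the rule, stood in Rgs5-high members at a log2 ratio of 1.48, from 25 UMIs in Foxq1iECKO and 7 in Foxq1flox/flox. The limit of 1 endothelial gene sets these counts, so they are a description. Rgs5-high members without any endothelial gene of the rule held Foxq1 at 597 CPM [479.9, 734] in Foxq1iECKO (47 barcodes) and 890.1 CPM [718, 1090.4] in Foxq1flox/flox (37 barcodes). Those with 1 endothelial gene held it at 705 CPM [619, 798] in Foxq1iECKO (102 barcodes) and 662 CPM [571, 763] in Foxq1flox/flox (78 barcodes). The order of the libraries thus turned with the endothelial gene, on overlapping intervals. It also turned among subclusters. In subcluster 1 Foxq1 stood at 881 CPM [746, 1034] in Foxq1iECKO and 1210.3 CPM [1021, 1424] in Foxq1flox/flox. In subcluster 3 it stood at 1246 CPM [968, 1580] in Foxq1iECKO and 654 CPM [475, 878] in Foxq1flox/flox, from 14 members each. The intervals of subcluster 3 do not overlap.

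Foxf2, a forkhead gene that brain pericytes are known to need, lies 64840 bp beyond Foxq1 on chromosome 13. In members it stood at 210.1 CPM in the Foxq1iECKO library and 220.5 CPM in the Foxq1flox/flox library (log2 ratio -0.07 [-0.32, 0.18]), and in Rgs5-high members at 478 CPM in Foxq1iECKO and 442 CPM in Foxq1flox/flox. In endothelial-like barcodes it was at 104 CPM in Foxq1iECKO and 156 CPM in Foxq1flox/flox. The last of these differences is lower by size, while in members neither Foxq1 nor Foxf2 was called.

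Between genotypes, 286 of 7336 genes measured in the members (at 20 CPM or more in at least 1 library) were higher by size in Foxq1iECKO, which is 3.9% of them, and 278 were lower, which is 3.79%. The median log2 ratio of all genes was -0.02. Of the higher genes, 148 were over 5 times higher in another class of barcodes, and of the lower genes 40 were. Within Rgs5-high members 275 of 7269 genes were higher (3.78%) and 367 lower (5.05%), and 60 higher and 87 lower genes were shared with the comparison of all members, which contains them. In endothelial-like barcodes, summed from many more UMIs, 33 of 6513 genes were higher (0.507%) and 42 lower (0.645%).

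**Figure D4:**
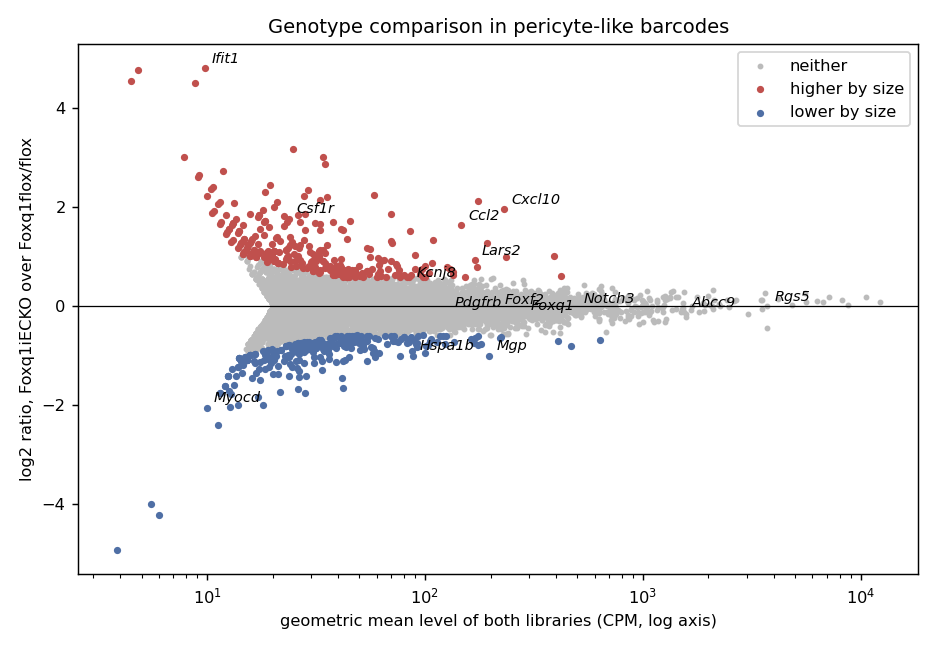
Log2 ratio of Foxq1iECKO over Foxq1flox/flox (vertical axis) against the geometric mean level of both libraries (horizontal axis, CPM, log axis) for genes measured in the pericyte-like barcodes, with genes higher by size in red and lower by size in blue; genes without a UMI in 1 library are not drawn. Rgs5, Abcc9, Notch3, Pdgfrb and Foxf2 lie near 0, Ccl2 and Cxcl10 at 1.64 and 1.96, and Mgp at -0.996.

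The genes furthest above 0 by the near limit of their interval included Lars2, the mitochondrial leucyl tRNA synthetase gene, at 234 CPM in the Foxq1iECKO library and 122 CPM in the Foxq1flox/flox library (0.94 [0.64, 1.24]). In Rgs5-high members it was at 260.0 CPM in Foxq1iECKO and 115 CPM in Foxq1flox/flox (1.18). The clock gene Arntl stood at 20.2 CPM in Foxq1iECKO and 5.51 CPM in Foxq1flox/flox (1.88), from 29 UMIs in Foxq1iECKO and 6 in Foxq1flox/flox. Both were also called higher within Rgs5-high members, Arntl from 14 UMIs in Foxq1iECKO and 1 in Foxq1flox/flox. Lars2 is known to hold a stretch that resembles mitochondrial ribosomal RNA, so reads may be shared, and 25 of its 130 Rgs5-high UMIs in Foxq1iECKO lay in 1 barcode.

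Il11, a cytokine gene of the interleukin-6 family, stood at 23.0 CPM in the Foxq1iECKO library and 7.35 CPM in the Foxq1flox/flox library (1.65 [0.51, 2.97]), and in Rgs5-high members at 62.0 CPM in Foxq1iECKO and 10.2 CPM in Foxq1flox/flox (2.60 [1.10, 4.56]). Its Rgs5-high UMIs lay in subcluster 2, at 187 CPM in Foxq1iECKO and 11.8 CPM in Foxq1flox/flox, and subcluster 3, at 202 CPM in Foxq1iECKO and 44.6 CPM in Foxq1flox/flox. In all, 22 Rgs5-high members in Foxq1iECKO and 3 in Foxq1flox/flox had an Il11 UMI. Il11 was also a leading gene of both subclusters.

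Of the 12 highest genes, 8 were not called higher in Rgs5-high members, where fewer UMIs were summed. Zfp251 was at 1.38 in all members and 1.76 in Rgs5-high members, there from 13 UMIs in Foxq1iECKO and 3 in Foxq1flox/flox. The ratios of the others were smaller in Rgs5-high members or rested on almost no UMIs there. Agfg2 (33 UMIs in Foxq1iECKO and 6 in Foxq1flox/flox) was at 2.06 in all members and 1.65 in Rgs5-high members, there from 12 UMIs in Foxq1iECKO and 3 in Foxq1flox/flox. The RNA editing enzyme gene Adar was at 1.24 in all members and 0.87 in Rgs5-high members, there from 14 UMIs in Foxq1iECKO and 6 in Foxq1flox/flox. The ion channel gene Trpm3 was at 1.69 in all members and 0.50 in Rgs5-high members, Tbccd1 at 1.43 in all members and 0.65 in Rgs5-high members, the anthrax toxin receptor gene Antxr2 at 1.13 in all members and 0.75 in Rgs5-high members, and the kinase gene Camk1d at 0.92 in all members and 0.59 in Rgs5-high members. Chac1, a glutathione-degrading enzyme gene of the stress response (1.65; 29 UMIs in Foxq1iECKO and 7 in Foxq1flox/flox), had 0 UMIs in the Rgs5-high members of Foxq1iECKO and 1 in those of Foxq1flox/flox.

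Among the lowest genes, Mgp, which encodes a matrix protein that inhibits calcification, stood at 139.6 CPM in the Foxq1iECKO library and 278 CPM in the Foxq1flox/flox library (-0.996 [-1.26, -0.73]). In Rgs5-high members it was at 64.0 CPM in Foxq1iECKO and 209 CPM in Foxq1flox/flox (-1.71 [-2.35, -1.10]), in 11 barcodes of Foxq1iECKO and 24 of Foxq1flox/flox. Among Rgs5-high subclusters Mgp was highest in subcluster 5, at 611 CPM over both libraries, which held 9 Foxq1iECKO and 20 Foxq1flox/flox members. In subcluster 1 it ran the other way, with 17 UMIs in Foxq1iECKO and 1 in Foxq1flox/flox. Myocd, the coactivator gene of the smooth muscle programme, stood at 4.89 CPM in Foxq1iECKO and 20.2 CPM in Foxq1flox/flox (-2.05 [-3.52, -0.77]), from 7 UMIs in Foxq1iECKO and 22 in Foxq1flox/flox, and it was a leading gene of subcluster 5. The transporter gene Slc6a17 stood at 21.6 CPM in Foxq1iECKO and 52.4 CPM in Foxq1flox/flox (-1.27) and was a leading gene of subcluster 2. All 3 were also lower by size within Rgs5-high members.

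The heat shock gene Hspa1b stood at 62.1 CPM in the Foxq1iECKO library and 124 CPM in the Foxq1flox/flox library (-0.997), and it shares reads with its near-identical copy Hspa1a, so its value is uncertain. Its UMIs were uneven: 34 of 89 in Foxq1iECKO and 31 of 135 in Foxq1flox/flox lay in 1 barcode each. Fgf14 (-1.74) and Ankrd36 (-1.72) each had 17 of their Foxq1flox/flox UMIs in 1 barcode, out of 43 for Fgf14 and 25 for Ankrd36. Without the top barcode of each library their ratios were -1.29 for Fgf14 and -1.07 for Ankrd36. The phospholipase gene Pla2g6 (-2.40) had 7 UMIs in Foxq1iECKO and 28 in Foxq1flox/flox, the sarcoglycan gene Sgcz (-1.98) 10 in Foxq1iECKO and 30 in Foxq1flox/flox, and Sugp2 (-1.77) 10 in Foxq1iECKO and 26 in Foxq1flox/flox, 9 of these in 1 barcode. The remaining lower genes, with 13 to 23 UMIs in Foxq1iECKO and 35 to 47 in Foxq1flox/flox, were Tafa2 (-1.98), the protease gene Pappa2 (-1.83) and the tendon gene Tnmd (-1.43). Of the 12 lowest genes 8 were lower by size in Rgs5-high members as well.

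Gene lists were read against the share of all genes at 10 CPM or more called by size, which was 4.15% higher and 3.94% lower in the members, and 3.14% higher and 4.33% lower in Rgs5-high members. Of 30 other pericyte genes 26 were measured, 1 was higher and 1 lower, with a median log2 ratio of -0.06 beside -0.02 for all genes. In Rgs5-high members 28 were measured, 1 was higher and 3 were lower (median -0.04). Zic1 and Tbx18, transcription factor genes of brain mural cells, were inside the size limit at 307 CPM in Foxq1iECKO and 327 CPM in Foxq1flox/flox for Zic1 (-0.09) and 93.5 CPM in Foxq1iECKO and 81.8 CPM in Foxq1flox/flox for Tbx18 (0.19). So were Ebf1 (-0.36) and the adhesion gene Mcam (-0.31).

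The lower gene of this list was S1pr3, a receptor gene for sphingosine 1-phosphate, at 57.2 CPM in Foxq1iECKO and 87.3 CPM in Foxq1flox/flox (-0.61 [-1.05, -0.17]).

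Within Rgs5-high members Kcnj8 stood at 228 CPM in Foxq1iECKO and 146 CPM in Foxq1flox/flox (0.65), while its channel partner Abcc9 stood at 3237 CPM in Foxq1iECKO and 3269.9 CPM in Foxq1flox/flox (-0.01). By subcluster Kcnj8 stood at 420.2 CPM in Foxq1iECKO and 267 CPM in Foxq1flox/flox in subcluster 1, and at 37.5 CPM in Foxq1iECKO and 94.2 CPM in Foxq1flox/flox in subcluster 2. The direction for Kcnj8 was not the same in every subcluster. Both are genes of the rule, so these values are a description and test nothing.

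Smooth muscle genes that passed the size limit were all lower in Foxq1iECKO. Of 15 listed genes 10 were measured in the members, 0 were higher and 2 lower, with a median of -0.17. These were the myosin gene Myh11, at 2.79 CPM in Foxq1iECKO and 13.8 CPM in Foxq1flox/flox (-2.30; 4 UMIs in Foxq1iECKO and 15 in Foxq1flox/flox), and Tagln, at 18.8 CPM in Foxq1iECKO and 41.3 CPM in Foxq1flox/flox (-1.13). In Rgs5-high members 11 were measured, 0 were higher and 5 lower (Myh11, Smtn, Tpm2, Tagln and Acta2), with a median of -0.67. Acta2 stood there at 96.0 CPM in Foxq1iECKO and 153 CPM in Foxq1flox/flox (-0.67). The median of the list was -0.30 with the subclusters given equal weight, and subcluster 5, which carries most Acta2 and Myh11, held 9 Foxq1iECKO and 20 Foxq1flox/flox members. Within subcluster 5 Acta2 stood at 590 CPM in Foxq1iECKO and 645 CPM in Foxq1flox/flox. It ran the other way in subcluster 2 (13 UMIs in Foxq1iECKO and 1 in Foxq1flox/flox) and subcluster 4 (9 in Foxq1iECKO and 1 in Foxq1flox/flox). Subclusters 1 and 3 had at most 1 Acta2 UMI in each library. Genes of vessel tone had 0 higher and 0 lower of 20 measured (median -0.05). In Rgs5-high members 1 of 18 was lower, the G protein regulator gene Rgs2, at 148 CPM in Foxq1iECKO and 299 CPM in Foxq1flox/flox (-1.01).

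PDGF genes, by which endothelium recruits pericytes, had 0 higher and 0 lower of 9 measured (median -0.01). VEGF and angiopoietin genes had 0 higher and 2 lower of 10 (median -0.34): Hgf, the gene of hepatocyte growth factor (-1.62; 6 UMIs in Foxq1iECKO and 14 in Foxq1flox/flox), and Angpt2, the antagonist of the vessel-stabilising ligand Angpt1, at 39.1 CPM in Foxq1iECKO and 58.8 CPM in Foxq1flox/flox (-0.59). In Rgs5-high members Angpt2 was at 50.01 CPM in Foxq1iECKO and 102 CPM in Foxq1flox/flox (-1.03 [-1.81, -0.27]). Vegfa stood at 119 CPM in Foxq1iECKO and 141 CPM in Foxq1flox/flox (-0.25), inside the size limit.

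Notch genes had 0 higher and 0 lower of 11 measured in the members (median -0.07). In Rgs5-high members 12 were measured, and there the target Hes1 was higher, at 374 CPM in Foxq1iECKO and 219.7 CPM in Foxq1flox/flox (0.77), and the ligand Jag1 lower, at 188 CPM in Foxq1iECKO and 312 CPM in Foxq1flox/flox (-0.73 [-1.13, -0.33]). In Rgs5-high subclusters 1, 2 and 5 alone, 0 of 11 were higher, and 2 were lower, Jag1 and Hey1 (background 2.89% higher and 3.57% lower). Genes of the TGF-beta and BMP pathways had 0 higher and 2 lower of 24 (median -0.07). These were the ligand gene Tgfb2, at 106 CPM in the Foxq1iECKO library and 175 CPM in the Foxq1flox/flox library (-0.72 [-1.04, -0.40]), and the matricellular gene Ccn2, a known target of TGF-beta, at 139 CPM in Foxq1iECKO and 236 CPM in Foxq1flox/flox (-0.77 [-1.04, -0.49]). Both were lower in Rgs5-high members too, Tgfb2 at 64.0 CPM in Foxq1iECKO and 174 CPM in Foxq1flox/flox (-1.44) and Ccn2 at 118 CPM in Foxq1iECKO and 204 CPM in Foxq1flox/flox (-0.79). Wnt genes had 1 higher, Myc (0.72), and 1 lower, Sp5 (-2.62; 3 UMIs in Foxq1iECKO and 14 in Foxq1flox/flox, 10 of them in 1 barcode, and -1.41 without the top barcode of each library), of 23 (median 0.09). Myc was inside the size limit in Rgs5-high members, with a ratio of -0.63.

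Transcription factor genes of mural cells had 0 higher and 0 lower of 27 measured (median -0.09). In Rgs5-high members 0 were higher and 2 of 26 lower, Mef2c, a factor of muscle and vessel genes, at 280.1 CPM in Foxq1iECKO and 467 CPM in Foxq1flox/flox (-0.74 [-1.07, -0.41]), and the mesenchymal gene Prrx1 (-0.66).

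Basement membrane genes, the layer that pericytes share with endothelium, had 2 higher and 0 lower of 19 (median -0.13): Hspg2, the perlecan gene (0.91), and Col15a1 (0.75). The abundant Col4a1 stood at 1439 CPM in Foxq1iECKO and 1565 CPM in Foxq1flox/flox (-0.12). Fibrillar matrix genes had 0 higher and 3 lower of 23 (median -0.15): Mfap2 (-0.74), the crosslinking enzyme gene Lox (-0.68) and the elastin gene Eln (-0.68). None of the 5 was called in Rgs5-high members, where other genes, Col3a1 (-0.80), Col1a2 (-0.65), Fbn1 (-1.20) and Lum (-2.09), were the 4 lower of 19. Fibroblast markers moved with these: their summed level in Rgs5-high members was 2626 CPM in Foxq1iECKO and 3975 CPM in Foxq1flox/flox, and their part in the result was not tested. In subcluster 1 that sum was 2381 CPM in Foxq1iECKO and 1828 CPM in Foxq1flox/flox, the other way round, with 174 UMIs of Col1a2 in Foxq1iECKO and 80 in Foxq1flox/flox. In subcluster 2 it was lower in Foxq1iECKO, at 2043 CPM, against 3922 CPM in Foxq1flox/flox (-0.94 [-1.19, -0.69]). In subclusters 3 and 4 the interval of the ratio included 0. The highest sum was in subcluster 5, at 8304 CPM in Foxq1iECKO (9 members) and 9488 CPM in Foxq1flox/flox (20 members). With equal weight for each subcluster the Rgs5-high median was 0.13 for fibroblast markers and -0.09 for fibrillar matrix genes, where the unweighted medians were -0.44 and -0.30. Adhesion genes had 1 higher, the gap junction gene Gja1 (0.75), and 1 lower, Vcam1 (-0.74), of 19 (median -0.05).

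Secreted factors held 3 higher and 3 lower of 30 measured (median -0.10). The chemokine genes Ccl2, at 258 CPM in the Foxq1iECKO library and 82.7 CPM in the Foxq1flox/flox library (1.64), and Ccl7, at 127 CPM in Foxq1iECKO and 26.6 CPM in Foxq1flox/flox (2.25), were higher, as was Igfbp3 (1.11). In Rgs5-high members Ccl2 was at 46.0 CPM in Foxq1iECKO and 43.4 CPM in Foxq1flox/flox and Ccl7 at 8.001 CPM in Foxq1iECKO and 20.4 CPM in Foxq1flox/flox, and neither was called there. The lower genes were Ccl11 (-2.72; 3 UMIs in Foxq1iECKO and 15 in Foxq1flox/flox), the insulin-like growth factor gene Igf2, at 97.7 CPM in Foxq1iECKO and 149 CPM in Foxq1flox/flox (-0.61), and the binding protein gene Igfbp5, at 502 CPM in Foxq1iECKO and 808 CPM in Foxq1flox/flox (-0.69 [-0.83, -0.54]). Igf2 and Igfbp5 were lower in Rgs5-high members as well, Igfbp5 at 46.0 CPM in Foxq1iECKO and 339.8 CPM in Foxq1flox/flox (-2.88), where 41 of its 133 Foxq1flox/flox UMIs lay in 1 barcode, and without the top barcode of each library at a ratio of -3.05.

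Transporter genes had 3 higher and 0 lower of 19 measured (median 0.18). Among the higher genes were the manganese transporter gene Slc30a10, at 47.5 CPM in Foxq1iECKO and 25.7 CPM in Foxq1flox/flox (0.88), and Slc3a2, a partner of amino acid transporters, at 172 CPM in Foxq1iECKO and 106 CPM in Foxq1flox/flox (0.70). In Rgs5-high members 1 of 22 was higher, which was neither of these, and 2 were lower, Slc6a20a (-1.87) and Slc7a2 (-1.49).

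**Figure D5:**
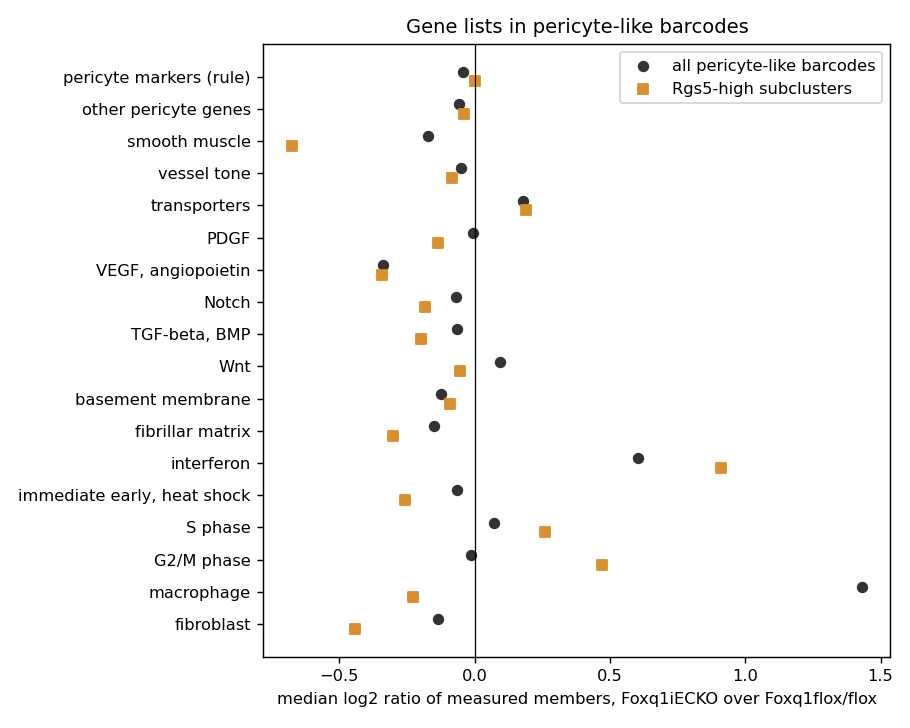
Median log2 ratio of Foxq1iECKO over Foxq1flox/flox (horizontal axis) for the measured genes of 18 lists (vertical axis), in all pericyte-like barcodes (dark circles) and in the Rgs5-high subclusters alone (orange squares). Interferon genes are at 0.60 in all members and 0.91 in Rgs5-high members, and macrophage markers at 1.43 in all members and -0.23 in Rgs5-high members.

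A part of the interferon response genes was higher in Foxq1iECKO members, and a few barcodes held much of the signal. Of 35 listed genes 21 were measured, 9 were higher and 0 lower, with a median of 0.60. Among them Cxcl10, a chemokine gene, stood at 454 CPM in the Foxq1iECKO library and 117 CPM in the Foxq1flox/flox library (1.96), the RNA sensor gene Ifih1 at 69.1 CPM in Foxq1iECKO and 15.6 CPM in Foxq1flox/flox (2.15), and Ifit1, an inhibitor of viral translation, at 51.7 CPM in Foxq1iECKO and 1.84 CPM in Foxq1flox/flox (4.81; 74 UMIs in Foxq1iECKO and 2 in Foxq1flox/flox). Ifit3 was at 23.7 CPM in Foxq1iECKO and 4.59 CPM in Foxq1flox/flox (2.37); Ifit genes have close paralogs, with which reads may be shared. The summed level of the list was 1678 CPM in Foxq1iECKO and 872 CPM in Foxq1flox/flox.

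The summed level of interferon genes was also higher in other classes, at 2073 CPM in Foxq1iECKO and 1601 CPM in Foxq1flox/flox for endothelial-like barcodes and at 7198 CPM in Foxq1iECKO and 5247 CPM in Foxq1flox/flox for macrophage-like barcodes. Macrophage markers moved with them in the members: 5 of 6 measured were higher (median 1.43), Csf1r stood at 44.0 CPM in Foxq1iECKO and 12.9 CPM in Foxq1flox/flox, and the list summed to 355 CPM in Foxq1iECKO and 175 CPM in Foxq1flox/flox. Subcluster 7, with those markers, held 1337 of 2403 interferon UMIs in Foxq1iECKO and 142 of 949 in Foxq1flox/flox. In subclusters 8, 9 and 10 the summed interferon level ran the other way. It was 617 CPM in Foxq1iECKO and 829 CPM in Foxq1flox/flox in subcluster 8 (-0.43 [-0.83, -0.03]). In subcluster 9 it was 191 CPM in Foxq1iECKO and 333 CPM in Foxq1flox/flox (-0.80 [-1.54, -0.09]). In subcluster 10 it was 451 CPM in Foxq1iECKO and 1078 CPM in Foxq1flox/flox (-1.26 [-1.58, -0.94]). The interval of the ratio included 0 in subclusters 6 and 11. In Rgs5-high members the macrophage markers summed to 74.0 CPM in Foxq1iECKO and 66.4 CPM in Foxq1flox/flox, with C1qa at 0 UMIs in both libraries.

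Within Rgs5-high members 6 of 21 interferon genes were higher and 0 lower (median 0.91). In subcluster 1 the summed level was 2218 CPM in Foxq1iECKO and 943 CPM in Foxq1flox/flox, and 1353 CPM in Foxq1iECKO and 885 CPM in Foxq1flox/flox without the top barcode of each library, and in subclusters 2 to 5 the interval of the ratio included 0. In subcluster 1, 1 Foxq1iECKO barcode with 5 pericyte genes and 0 macrophage markers held 154 of the 704 interferon UMIs, among them all 13 of Ifit1 and 24 of 27 of Rsad2. Without the top barcode of each library, 1 of 17 measured genes was higher, at a background of 3.07%, and the median was 0.21. That gene was Ifitm3, a membrane protein that restricts virus entry, at 362 CPM in Foxq1iECKO and 181 CPM in Foxq1flox/flox (1.00 [0.59, 1.41]), found in 86 Rgs5-high members of Foxq1iECKO and 45 of Foxq1flox/flox. Left without its own top barcode in each library, Oasl2 was at 0.95, Ifih1 at 1.65, Ifit3 at 1.63 and Rsad2 at -0.77. Ifit1 was then at 0 CPM in both libraries. With all barcodes Ifih1 had 21 UMIs in Foxq1iECKO, 9 of them in 1 barcode, and 4 in Foxq1flox/flox. Ifit3 had 14 in Foxq1iECKO, 10 of them in 1 barcode, and 2 in Foxq1flox/flox. Without the top barcode for the list in each library, its summed level was 1109.8 CPM in Foxq1iECKO and 857 CPM in Foxq1flox/flox (log2 ratio 0.37). In the members as a whole, 7 of 21 genes were higher without the top barcode of each library (median 0.77).

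G2 and mitosis genes had 0 higher and 0 lower of 43 in the members (median -0.01). In Rgs5-high members 9 of 41 were higher and 0 lower (median 0.47), with Mki67 at 716 CPM in Foxq1iECKO and 434 CPM in Foxq1flox/flox (0.72). With equal weight for each subcluster that median was 0.01, and in Rgs5-high subclusters 1, 2 and 5 (95 Foxq1iECKO and 90 Foxq1flox/flox members), which have few transcripts of these genes and leave out subclusters 3 and 4 together, 0 of 34 were higher (background 2.89%) and 3 lower (background 3.57%). Subcluster 4 was 14.4% of Foxq1iECKO members and 5.26% of Foxq1flox/flox members, and its part in the result was not tested alone. Within it the G2 and mitosis genes summed to 16858.5 CPM in Foxq1iECKO and 16661 CPM in Foxq1flox/flox, and Mki67 was at 2017 CPM in Foxq1iECKO and 1442 CPM in Foxq1flox/flox. S phase genes had 1 higher, the replication helicase gene Mcm3 (0.59), and 0 lower of 29 (median 0.07), and in Rgs5-high members 6 higher and 0 lower of 29 (median 0.26). With equal weight for each subcluster the Rgs5-high median of S phase genes was 0.097. In Rgs5-high subclusters 1, 2 and 5 alone, 3 were higher and 0 lower of 28.

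Immediate early and heat shock genes had 0 higher and 2 lower of 26, Hspa1b and the nuclear receptor gene Nr4a1 (median -0.07). Nr4a1 stood at 318 CPM in the Foxq1iECKO library and 518 CPM in the Foxq1flox/flox library (-0.70 [-0.88, -0.52]), and in Rgs5-high members at 544 CPM in Foxq1iECKO and 902 CPM in Foxq1flox/flox (-0.73). There 1 of the 26 was higher, Fosb (0.60), and 6 were lower, the others being Hspa1a (-0.93), Btg2 (-0.85), Egr3 (-0.77) and Hsph1 (-0.67), with Hspa1b at -2.19. Fos itself stood at 723 CPM in Foxq1iECKO and 767 CPM in Foxq1flox/flox (-0.09).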

How the data were processed

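Embryonic mouse brain cells sorted with CD31 beads were measured in 1 library per genotype. The deposited files hold raw UMI counts per gene and barcode, made by the authors with fastp 0.24.0 and STARsolo 2.7.11b on mm10, per the submitters' processing notes. Barcodes with at least 1000 UMIs, at least 500 genes and at most 20% mitochondrial UMIs were kept, and predicted doublets (Scrublet, expected 8%) were marked and not removed. Members were selected by the pericyte and endothelial genes and their counts summed per library, from 1432477 UMIs in Foxq1iECKO and 1088461 UMIs in Foxq1flox/flox. CPM levels carry exact Poisson intervals, ratios exact conditional binomial intervals and shares Clopper-Pearson intervals, all at 95% and for counting error only.

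With 1 library per genotype there was no replicate, so no p-value is given. A gene at 20 CPM or more in 1 library (10 CPM for lists) was called by size at a ratio of 1.5 or more with an interval that excludes 1. Genes named are the 12 with the highest and the 12 with the lowest near interval limit, leaving out mitochondrial, ribosomal, haemoglobin, sex-linked and predicted genes and any gene whose level elsewhere exceeded 5 times its own, up to 4 per list, Foxq1, Foxf2 and the genes of the rule. Fibroblast-like, macrophage-like, neuron-like and radial glia-like barcodes had at least 5, 3, 4 and 3 markers of their lists and at most 1 gene of each kind of the rule. Markers of other lists were also limited: macrophage and cartilage markers in fibroblast-like barcodes, and macrophage and fibroblast markers in neuron-like barcodes. In radial glia-like barcodes macrophage, fibroblast and neuron markers were limited. Subclusters came from 2000 variable genes scaled to 10000 UMIs, 20 principal components, 15 neighbours and Leiden clustering at 0.6. The members and lists were chosen with earlier results of these data known, and 3 alternatives (Rgs5-high subclusters alone, without members carrying other-class markers, and without the top interferon barcode of each library) were added after seeing the data. Promoter sequences are RefSeq's, build GRCm38.p6, and all 3 genes matched. Alternatives varied the filters, gate, scaling (edgeR 4.0.16 TMM and DESeq2 1.42.0 size factors), doublets and weights. Tools were scanpy 1.11.5, leidenalg 0.10.2, igraph 0.11.9, R 4.3.3, scipy 1.17.1, numpy 2.4.6, pandas 2.3.3 and matplotlib 3.10.9 under Python 3.11.15. The computations were tested on simulated data. Some genes that the naming rule picks are not reported here, though they stay in the counts.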

Additional observations from a re-analysis of the deposited data

Results flagged for a closer look

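Hspa1b, a heat shock gene, went opposite ways in different members. In Rgs5-high subclusters its log2 ratio was -2.19, at 62.0 CPM in Foxq1iECKO and 284 CPM in Foxq1flox/flox, and in the other subclusters it was 0.85. The difference between these ratios was not tested. In Rgs5-high members 31 of 111 Foxq1flox/flox UMIs lay in 1 barcode, and in the other subclusters 34 of 58 Foxq1iECKO UMIs did. By subcluster, 74 of those 111 UMIs were in subcluster 5, at 70.8 CPM in Foxq1iECKO (9 members) and 852 CPM in Foxq1flox/flox (20 members), and 43 of those 58 were in subcluster 10. Without the top barcode of each library the ratio was -1.91 in Rgs5-high members and -0.09 in the other subclusters.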

How the results depend on the processing

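The log2 ratio of Foxq1 in the members was 0.0784 with equal weight for each subcluster, 0.39 with a gate of at least 4 pericyte genes and 0 endothelial genes, -0.80 with any number of endothelial genes, and -0.49 without members that carry markers of other classes. The number of genes higher and lower by size was 36 and 27 with any number of endothelial genes, 113 and 116 at 50 CPM or more, and 470 and 429 with no minimum. The difference in share was 0.0953 percentage points with the gate of 4 and 0, and 3.79 with any number of endothelial genes. The cause was not tested, beyond the fewer or more genes and barcodes that each setting takes in. In the other 43 settings of these results the value kept its direction and size class. Without the top interferon barcode of each library 261 genes were higher and 255 lower. Scaling by TMM moved the median of all genes by 0.03 and DESeq2 size factors by 0.02.

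Of the values for single genes and lists, 1878 stayed, 382 moved and 32 reversed. With the gate of 4 and 0 the reversed values were -0.20 for Trpm3, 0.38 for Sugp2, -0.39 for Col15a1, -2.07 for Ccl7, -1.79 for Igfbp3 and -0.94 for Cxcl10. With any number of endothelial genes they were -0.0906 for Hspg2, 0.0551 for Eln, -0.17 for Slc3a2, -0.0674 for Mcm3 and -1.17 for Actc1. With the gate applied after thinning they were 0.19 for Pappa2, -0.11 for Myc, 0.79 for Eln, -0.28 for Igfbp3 and 0.60 for Stmn2, and without doublets 0.15 for Stmn2. In Rgs5-high members they were -0.63 for Myc, 0.28 for Lox, 1.65 for Eln, -1.35 for Ccl7, 0.11 for Twist2 and -0.23 for Cx3cr1. Without members that carry other-class markers they were 0.40 for Ankrd36, 0.63 for Mfap2, 0.40 for Lox, 0.99 for Vcam1, -0.0594 for Cxcl10, 1.49 for Aldh1a2, 0.99 for Twist2, -0.89 for Cx3cr1 and -0.60 for C1qc. No paired analysis was possible because each genotype has 1 library. A gene with few UMIs in these sums can be off by its counting error, and a difference between the genotypes cannot be told apart from one between 2 libraries.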

Other observations

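Lists not described above held few called genes in the members. Hypoxia and glycolysis genes had 1 higher, the oxygen sensor gene Egln3 (34 UMIs in Foxq1iECKO and 9 in Foxq1flox/flox), and 0 lower of 21 (median -0.16). Genes of the aryl hydrocarbon receptor and NRF2 responses had 2 higher, the haem oxygenase gene Hmox1 and the glutathione reductase gene Gsr, and 0 lower of 11 (median 0.19). Hmox1 was at 300.2 CPM in Foxq1iECKO and 124 CPM in Foxq1flox/flox. Retinoic acid genes had 1 higher, the binding protein gene Crabp2 (19 UMIs in Foxq1iECKO and 5 in Foxq1flox/flox), and 1 lower, the synthesis enzyme gene Aldh1a2, of 11 (median -0.06).

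Markers of other cell types in the members were as follows. Fibroblast markers summed to 7369 CPM in Foxq1iECKO and 8171 CPM in Foxq1flox/flox, with 1 of 10 lower, Twist2. Cartilage markers summed to 2064 CPM in Foxq1iECKO and 2272 CPM in Foxq1flox/flox, with 1 of 9 lower, Matn4. Neuron markers summed to 420 CPM in Foxq1iECKO and 449 CPM in Foxq1flox/flox, with 1 of 8 lower, Stmn2, and radial glia markers to 462 CPM in Foxq1iECKO and 379 CPM in Foxq1flox/flox, with Pax6 higher (19 UMIs in Foxq1iECKO and 3 in Foxq1flox/flox). Other endothelial genes summed to 983 CPM in Foxq1iECKO and 926 CPM in Foxq1flox/flox, with 0 of 13 called and Icam2 and Robo4 at 0. Haemoglobin and other erythroid genes summed to 9.77 CPM in Foxq1iECKO and 50.5 CPM in Foxq1flox/flox. In Foxq1flox/flox 1 barcode held 15 of 18 UMIs of Hba-a2 and 1 held 16 of 20 of Hbb-y. Without the top barcode of each library Hba-a2 was at 1.41 CPM in Foxq1iECKO and 2.77 CPM in Foxq1flox/flox, and Hbb-y at 2.11 CPM in Foxq1iECKO and 3.69 CPM in Foxq1flox/flox.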
